A study of Mus musculus with 8 samples.

Results

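Vitamin C-treated cells collected early were set against untreated cells collected later, so that a gene raised by the treatment had to exceed what further culture without it reached. The comparison took 4 of the 8 arrays of the study, 2 from cells given vitamin C (ascorbate) and lysed on days 3 and 4, and 2 from untreated cells lysed on days 5 and 6. Treatment and day therefore differed together. The other 4 arrays, from untreated cells on days 3 and 4 and treated cells on days 5 and 6, formed a mirror comparison that shared no array with the first.

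The cells were the mouse clone MaF pre-iPSC9P2, pre-induced pluripotent stem cells, a partly reprogrammed state in which somatic cells have left their identity without reaching pluripotency. All groups grew on a feeder layer in mESC medium (mouse embryonic stem cell medium), and feeder cells were eliminated after trypsin treatment, before lysis. Treated cells received vitamin C at 50 µg/ml continuously from day 2, and untreated cells received the same medium without it. There was 1 array for each treatment and day, all from 1 clone, and the labels do not say whether the days came from separate cultures, so the p-values below measure the spread between arrays of neighbouring days.

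Vitamin C is a cofactor that keeps the iron of 2-oxoglutarate-dependent dioxygenases in its active form. These enzymes include the prolyl hydroxylases of collagen, those that mark hypoxia-inducible factor (HIF) for degradation, the TET enzymes that oxidise 5-methylcytosine, and JmjC histone demethylases. In reprogramming, vitamin C is known to help partly reprogrammed cells to reach the pluripotent state. That state is marked by Nanog, Esrrb and Zfp42, by epithelial junctions, and by the re-expression of genes that somatic cells keep methylated.

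Array medians lay between 4.33 and 4.40 on the log2 scale, and arrays correlated with one another at 0.977 to 0.994. Pou5f1, the pluripotency factor also known as Oct4, read 12.05 and 12.02 in treated cells on days 3 and 4 and 12.09 on both late untreated days. Zfp42 (Rex1), a marker of completed reprogramming, lay below the array medians in all 4 of these arrays, at 3.33 and 3.99 with vitamin C and 4.09 and 3.56 without. Fibroblast markers were still measured: Col1a1, the main collagen chain, read 9.38 and 9.25 in the treated arrays and 9.33 and 8.71 in the late untreated ones. The mean log2 level of the 29 feeder or fibroblast markers measured was 6.66 and 6.62 in the treated arrays, within the 6.77 and 6.24 of the untreated ones. Feeder cells and fibroblast-like cells of the clone share these markers. In bulk RNA, fewer cells of a type and less RNA per cell cannot be told apart.

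At a Benjamini-Hochberg adjusted p under 0.05 in limma, 10 of 19938 genes differed (0.0502%), 4 of them higher with early vitamin C (0.0201%) and 6 lower (0.0301%). Morc1, Dppa2, Clec2g and Ccnb1ip1 rose, and Penk, Depp1, P4ha1, Ccn1, Nr4a1 and Spock2 fell. At the looser adjusted p under 0.10, 278 genes passed (1.39%), 125 higher (0.627%) and 153 lower (0.767%). The mirror comparison had 1617 genes past 0.05 (8.11%). Without the untreated day 6 array 0 genes passed at 0.05, with adjusted p of at least 0.315 for the 10, which kept 83.7% to 102.1% of their differences. The count ran from 2 to 237 over normalization, filter and variance settings.

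The promoters of 4 genes are shown, 2 that rose and 2 hypoxia genes described further on, because TET enzymes act at CG dinucleotides and HIF binds a short core motif. They are RefSeq windows of 300 bases around the annotated start, assembly GRCm38.p6, 5′ to 3′ on the gene's strand. No window was available for Morc1 or Dppa2, the other 2 genes that rose past the threshold.

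The first pair carries its CG dinucleotides in capitals. Clec2g lies at chr6:128934131-128934430 on the plus strand and holds 4 CG. Ccnb1ip1 lies at chr14:50795679-50795978 on the minus strand and holds 13.
Clec2g: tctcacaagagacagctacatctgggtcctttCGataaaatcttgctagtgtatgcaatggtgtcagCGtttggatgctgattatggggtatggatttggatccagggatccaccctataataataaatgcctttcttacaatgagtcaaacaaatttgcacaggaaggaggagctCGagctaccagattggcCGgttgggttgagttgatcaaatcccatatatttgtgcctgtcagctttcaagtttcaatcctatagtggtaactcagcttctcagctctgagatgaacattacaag
Ccnb1ip1: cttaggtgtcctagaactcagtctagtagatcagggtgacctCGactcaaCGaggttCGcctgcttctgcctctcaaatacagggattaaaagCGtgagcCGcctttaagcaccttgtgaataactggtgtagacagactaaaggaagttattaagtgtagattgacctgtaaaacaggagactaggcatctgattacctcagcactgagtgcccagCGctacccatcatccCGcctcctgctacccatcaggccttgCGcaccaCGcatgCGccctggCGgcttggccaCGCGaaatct

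Among 15563 genes with such a window the median was 15 CG, with quartiles of 5 and 25. The Clec2g window was CG-poor, since 24.6% of windows held as few CG or fewer, and 46.3% did for Ccnb1ip1.

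The second pair carries the HIF core motif in capitals, ACGTG or GCGTG on either strand, so that CACGT and CACGC mark the opposite strand and CACGTG counts on both. P4ha1 lies at chr10:59323046-59323345 on the plus strand and holds 3 cores. Bnip3 lies at chr7:138909457-138909756 on the minus strand and holds 5.
P4ha1: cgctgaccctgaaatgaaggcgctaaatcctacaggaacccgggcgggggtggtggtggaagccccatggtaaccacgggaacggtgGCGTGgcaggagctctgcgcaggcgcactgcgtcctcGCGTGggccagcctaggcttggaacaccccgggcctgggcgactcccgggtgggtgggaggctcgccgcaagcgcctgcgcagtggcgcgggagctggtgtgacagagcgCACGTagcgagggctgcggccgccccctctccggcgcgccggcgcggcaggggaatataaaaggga
Bnip3: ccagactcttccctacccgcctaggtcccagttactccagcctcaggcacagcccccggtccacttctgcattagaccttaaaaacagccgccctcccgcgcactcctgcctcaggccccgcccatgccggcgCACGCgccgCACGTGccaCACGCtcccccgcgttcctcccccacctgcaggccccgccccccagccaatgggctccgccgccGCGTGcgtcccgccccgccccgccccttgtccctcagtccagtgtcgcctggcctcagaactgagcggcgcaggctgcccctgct

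Of all windows, 51.9% held at least 1 core. In the list of hypoxia and glycolysis genes used below, 18 of 24 windows did (75%), and their median of 22.5 CG was above that of all windows. The motif contains a CG, so its count moves with CG content, and a match is a description of the letters, not a binding site.

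Of the 4 genes that rose, 3 were already high by day 3 of vitamin C and stayed low on every untreated day. Morc1, a germline ATPase needed to silence transposons in male germ cells, read 5.97 and 7.06 with vitamin C on days 3 and 4. It read 3.77 and 3.87 in untreated cells on days 5 and 6, and 3.84 and 3.78 on days 3 and 4. All untreated values lay between 3.77 and 3.87, under the array medians, and the lower treated value was 2.10 above the highest of them. The difference was 2.70 ± 0.29 (SE, n = 2 against 2) on the log2 scale, a fold of 6.49, with an adjusted p of 0.0319 in limma. Morc1 rose by 3.47 in the mirror comparison.

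Dppa2, a DNA-binding protein of pluripotent cells, read 5.35 and 6.99 with early vitamin C against 3.48 and 3.03 in late untreated cells, and early untreated cells had 3.51 and 3.28. The groups did not overlap, and the day 4 treated array was well above the day 3 one. Dppa2 rose by 2.92 ± 0.40 (fold 7.54, adjusted p 0.0462 in limma), and by 3.74 in the mirror comparison. These values are of its brightest probe set. With the mean of its probe sets the first difference was 2.02 and did not pass (adjusted p 0.0724 in limma). Clec2g, a C-type lectin-related gene of a family of near copies, read 5.15 and 6.19 against 3.46 and 3.55. It rose by 2.16 ± 0.27 (fold 4.47, adjusted p 0.0450 in limma) and by 3.12 in the mirror comparison. Reads of near copies on the same probes cannot be separated here.

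Ccnb1ip1, an E3 ubiquitin ligase of meiotic crossover formation, followed another course. It read 7.12 and 6.83 with early vitamin C and 5.47 and 5.39 in late untreated cells, but 6.31 and 6.45 in early untreated cells and 5.93 and 5.55 in late treated ones. Both treatments were lower on days 5 and 6 than on days 3 and 4, and on each day the treated array was the higher. The rise of 1.54 ± 0.17 (fold 2.91, adjusted p 0.0319 in limma) became a fall of 0.64 in the mirror comparison (adjusted p 0.0446). A gene that moved with day alone would have opposite signs in the 2 comparisons, and one that moved with vitamin C alone the same sign. All 4 genes that rose lay above all 4 untreated arrays in both early treated arrays, as did 2146 of all genes (10.8%).

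**Figure D1:**
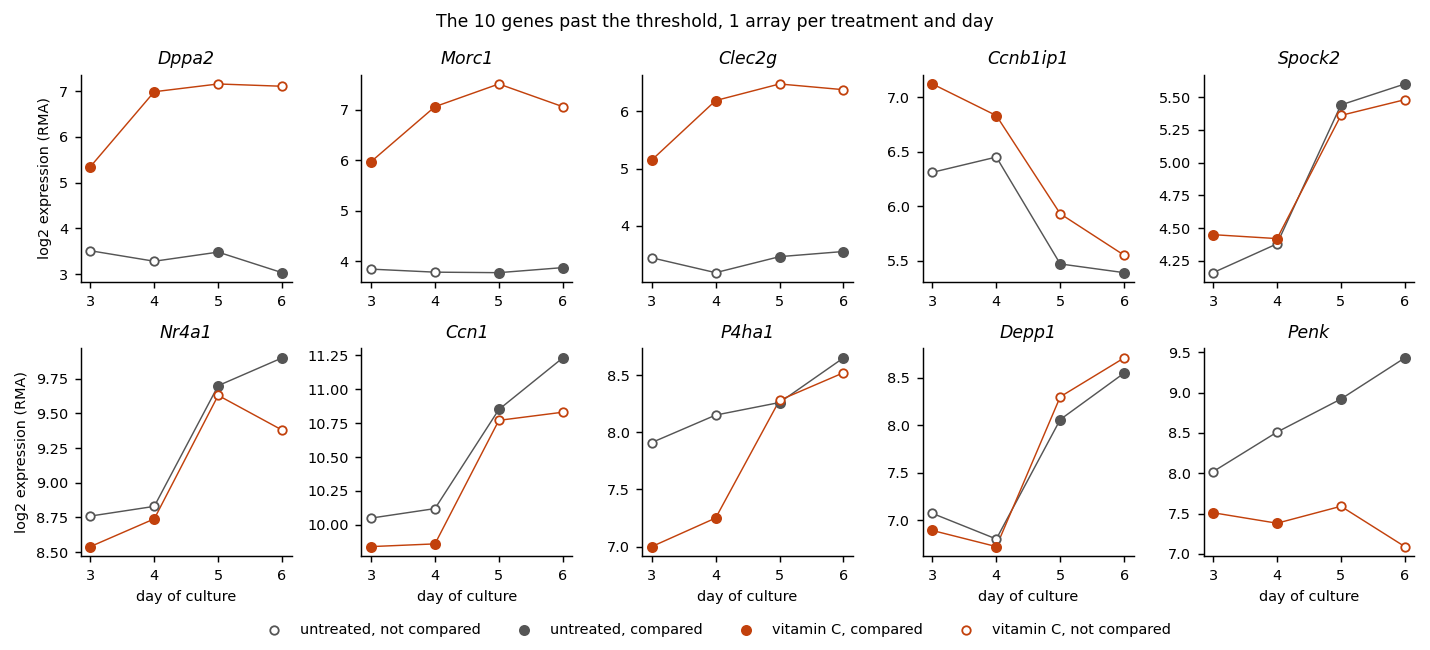
Log2 expression (vertical axis, scaled separately in each panel) by day of culture for the 10 genes past an adjusted p of 0.05, 1 point per array. Filled points are the arrays compared, open points the other 4. Morc1, Dppa2 and Clec2g are high on every vitamin C day and flat without it, whereas Depp1, Ccn1, Nr4a1 and Spock2 follow the day in both treatments.

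A gap of at least 2-fold between the lower early vitamin C array and the highest of all 4 untreated arrays was found for 6 genes (0.0301%), and in the opposite direction for 0. These were Morc1, Dppa2, Clec2g, Serpina1c, Dppa5a and the predicted gene Gm6083, the last named after its value was seen. The latter 3 did not pass the threshold. Dppa5a, an RNA-binding protein of the early embryo and of embryonic stem cells, read 9.20 and 10.73 with early vitamin C against 7.32 and 7.59 in late untreated cells, a difference of 2.50 ± 0.37 (adjusted p 0.0545 in limma). Its untreated values were higher on days 5 and 6 than on days 3 and 4 (6.48 and 6.76), and the treated ones were still above them. Serpina1c, one of several near-identical alpha-1-antitrypsin genes, read 5.48 and 6.84 against 3.70 and 3.06, a difference of 2.78 ± 0.53 (adjusted p 0.0786). Its level in late treated cells was uneven, at 5.90 and 4.16. Gm6083 read 6.22 and 7.22 against 4.40 and 4.70, a difference of 2.17 (adjusted p 0.0545).

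Car2, the cytosolic carbonic anhydrase, belongs to a wider set of 13 genes (0.0652%) in which each of the 4 pairs of arrays differed by at least 2-fold upwards. It read 8.53 and 9.14 against 7.34 and 7.42, a difference of 1.45 ± 0.22 (adjusted p 0.0545 in limma), and all 4 untreated values lay between 7.27 and 7.59. Cers3, a ceramide synthase of the epidermal barrier, read 5.54 and 5.88 against 4.53 and 4.41, a difference of 1.24 (adjusted p 0.0558), and rose by 2.15 in the mirror comparison.

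**Figure D2:**
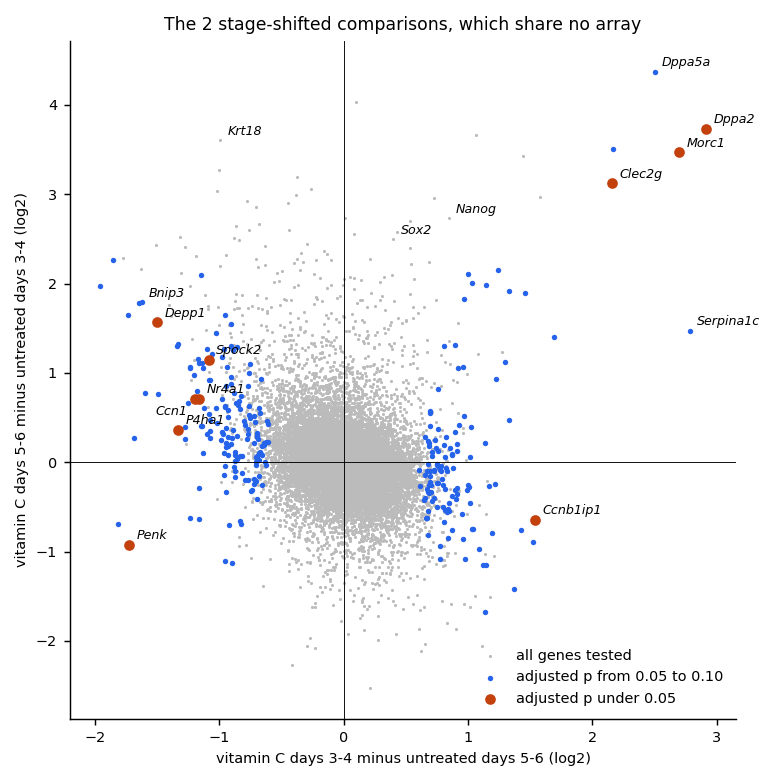
Each point is 1 of the 19938 genes. The horizontal axis is early vitamin C minus late untreated and the vertical axis late vitamin C minus early untreated, both as log2 differences. The labelled genes at the upper right have positive differences in both comparisons, although Sox2 on vitamin C day 3 was below all 4 untreated arrays. Those at the upper left, such as Bnip3 and Depp1, have opposite signs. Both axes share 1 estimate of spread but no array.

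The 4 reprogramming factors did not differ past the threshold. Sox2, one of them, read 4.91 and 6.30 with early vitamin C against 5.22 and 5.18 in late untreated cells. The day 3 array was below both untreated arrays and the day 4 array above them, so the difference was 0.40 with a 95% interval of -0.39 to 1.19. In late treated cells Sox2 read 7.19 and 7.74, and it rose by 2.50 in the mirror comparison (adjusted p 0.0035). Klf4 differed by -0.31, Myc by -0.22 and Pou5f1 by -0.05, none past the threshold. The labels do not give the transgenes of the clone, and transgene and endogenous transcripts were not separated.

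In the list of naive pluripotency genes, 34 were measured, and 15 were higher without overlap and 5 lower, where 23.2% of all genes were higher and 22.5% lower. The list median was 0.25, against 0.01 for all genes, and 0.13 without the vitamin C day 4 array. Dppa2 was the member past an adjusted p of 0.05, and Dppa5a and Gdf3 were between that and 0.10. Gdf3, a TGF-beta family ligand, read 7.20 and 7.77 against 6.72 and 6.51, a difference of 0.87 ± 0.19 (adjusted p 0.0894). Nanog, the core factor of the naive state, read 7.03 and 7.83 against 6.40 and 6.77. Its early treated values were above all 4 untreated ones, by little on day 3, and the difference of 0.85 ± 0.31 did not pass (adjusted p 0.231). By days 5 and 6 with vitamin C it read 8.46 and 8.87, a rise of 2.73 in the mirror comparison.

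Some members were at the same level or higher in untreated cells by days 5 and 6. Tdgf1, the Nodal co-receptor Cripto, read 9.20 and 10.15 against 10.21 and 10.60, a difference of -0.73 (adjusted p 0.253). Lin28a, an RNA-binding protein that blocks let-7 processing, differed by -0.68 (adjusted p 0.191). Utf1, a chromatin factor of embryonic stem cells, differed by -0.13, Zfp42 by -0.16 and Dppa3 by 0.27, with overlapping groups and none past the threshold. Esrrb, an orphan nuclear receptor of the naive state, read 4.10 and 3.56 against 3.24 and 3.36, and Dppa4, the partner of Dppa2, read 3.68 and 3.93 against 3.54 and 3.63. Both lay above all 4 untreated arrays, Dppa4 by 0.05, and their differences of 0.53 and 0.22 did not pass. The mirror comparison had 16 members that rose and 1 that fell, Nr5a2, among 918 genes that rose (4.60%) and 699 that fell (3.51%).

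The list of Nodal pathway genes leaned the other way, with 7 of 15 lower without overlap and 2 higher, beside 22.5% and 23.2% of all genes. Its median was -0.34, and -0.11 without the vitamin C day 3 array. The mean level of the list was 5.95 and 6.43 in early treated cells and 6.4 and 6.49 in late untreated cells. Early untreated cells had 5.96 and 6.1, so treated cells were level with untreated cells on day 3 and above them on day 4. The lean was thus one against late untreated cells only. Lefty1, a secreted Nodal inhibitor and target, read 3.76 and 5.27 with early vitamin C against 5.38 and 5.39. The day 4 treated array was nearly at the untreated level and the day 3 array well below it, and the difference of -0.87 ± 0.44 did not pass. Cer1, another secreted inhibitor, differed by -0.76. Of the list, 7 rose in the mirror comparison, with Lefty1 by 2.64 and Cer1 by 2.60.

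Germline genes that DNA methylation silences in somatic cells gave few differences beyond Morc1. Of 25 measured, 8 were higher without overlap and 4 lower, beside 23.2% and 22.5% of all genes, and the median was 0.13. Piwil2, which binds piRNAs, read 4.67 and 5.32 with early vitamin C against 4.01 and 3.97, a difference of 1.0 ± 0.21 (adjusted p 0.0799), and rose by 2.11 in the mirror comparison. Rhox9, a homeobox gene of the X-linked Rhox cluster, read 4.81 and 5.50 against 4.48 and 3.68, a difference of 1.08 (adjusted p 0.142). Both had early treated values above all 4 untreated arrays. Ddx4, Dazl, Mael, Sycp1, Sycp3 and Tex11 read between 1.64 and 3.16 on all 8 arrays, and none of them passed in either comparison.

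Among epithelial genes, early vitamin C and late untreated cells stood about level. Of 35 measured, 0 passed in either direction at an adjusted p of 0.05 in limma, and the median was -0.03. Without overlap, 5 were higher and 11 lower, beside 23.2% and 22.5% of all genes. Cdh1 (E-cadherin) read 8.54 and 8.91 with early vitamin C against 8.59 and 8.86, a difference of -0.00 ± 0.17 with groups that interleaved. Grhl2, a transcription factor of epithelial junction genes, read 4.78 and 5.48 against 4.05 and 4.14. It was above every untreated array, with a difference of 1.03 ± 0.21 (adjusted p 0.0799). Rab25 and Ap1m2, which serve epithelial vesicle sorting, differed by 0.60 and 0.53 without passing.

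Simple-epithelium keratins of this list had negative differences. Krt19 read 9.70 and 9.80 with early vitamin C against 10.41 and 11.28, a difference of -1.09 ± 0.26 (adjusted p 0.105). Its early untreated values were 9.66 and 9.55, so the distance was one between early and late untreated cells. Krt18 differed by -0.99 and Krt8 by -0.56, and the tight junction gene Cldn3 by -0.70, none past the threshold. Cldn3 read 5.60 and 5.47 in early untreated cells and 5.52 and 6.06 with early vitamin C. The separate list of keratins and cornified layer genes had 10 of 28 lower without overlap and 5 higher, with 15 below zero and 13 above. At an adjusted p under 0.10 in limma, 4 were lower and 1 higher, beside 0.767% and 0.627% of all genes. Its median of -0.06 ran from -0.10 to 0.06 over the settings. Of the 35, 29 rose and 0 fell in the mirror comparison, with a median of 1.13, and the largest was Krt18 at 3.60. Mesenchymal genes had a median of -0.09, with 3 of 27 higher without overlap and 7 lower. Beside the counts of both lists stand 23.2% of all genes higher without overlap and 22.5% lower. Vim (vimentin) differed by -0.21 ± 0.20. Of the 27, 14 fell in the mirror comparison and 0 rose.

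The feeder or fibroblast markers, measured beside these, had a median of 0.16, with 0 of 29 past an adjusted p of 0.05 in limma. Without overlap, 4 were higher and 5 lower, beside 23.2% and 22.5% of all genes. Lum (lumican) read 4.04 and 4.76 against 3.25 and 2.70, a difference of 1.42 (adjusted p 0.0649 in limma). Its early untreated values were 4.44 and 4.67, so the distance was one between early and late untreated cells. Thy1 differed by 0.46, and its early untreated values of 7.03 and 6.84 were above the early treated 6.51 and 6.68. In the mirror comparison 17 markers fell and 0 rose, with a median of -0.88. The epithelial, mesenchymal and marker medians changed sign under 1 or more of the alternative settings. The part of the markers in the epithelial and mesenchymal values was not tested. With the marker mean as a covariate, the 10 genes named above kept 90.7% to 101.2% of their differences. The marker means of the compared arrays were close, 6.66 and 6.62 against 6.77 and 6.24. The covariate thus had little room to move the differences. None then had an adjusted p under 0.05, and all 10 had an unadjusted p under 0.05.

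**Figure D3:**
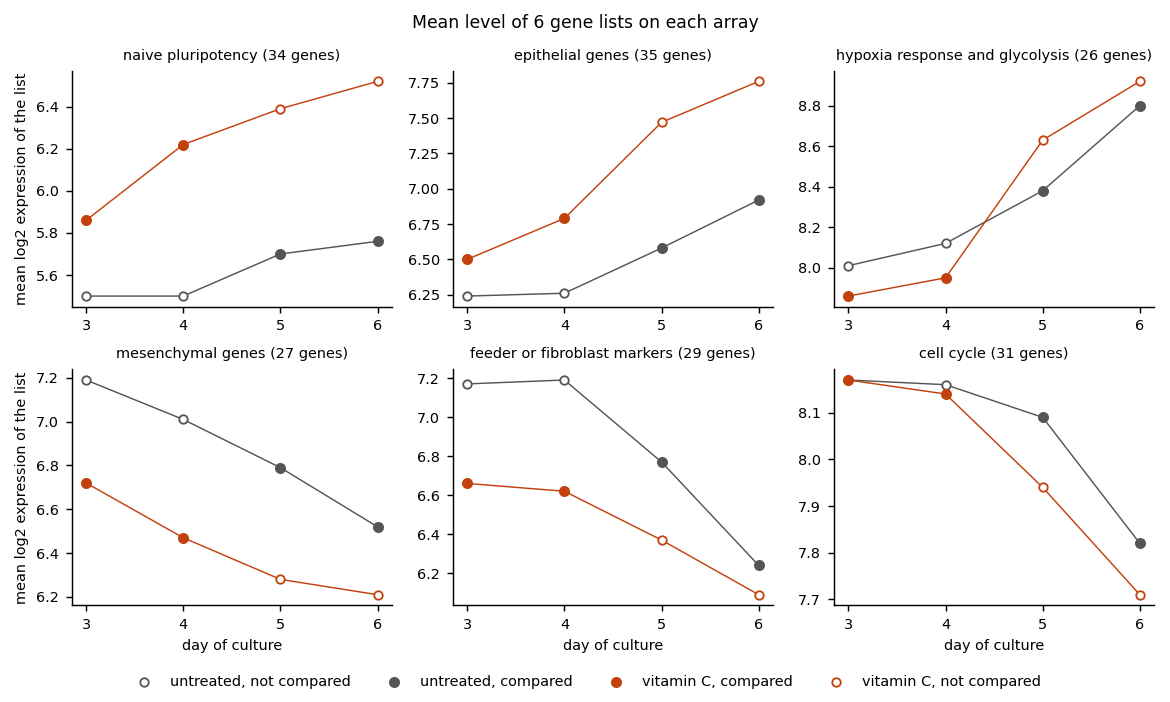
Mean log2 expression of 6 gene lists (vertical axis, scaled separately in each panel) by day of culture, 1 point per array. Filled points are the arrays compared, open points the other 4. Early treated and late untreated epithelial means lie close together, and the hypoxia and glycolysis means of early treated cells, 7.86 and 7.95, lie below all 4 untreated arrays.

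The hypoxia response and glycolysis genes had the lowest median of the 26 lists, at -0.62. Of 26 measured, 19 were lower without overlap and 0 higher, beside 22.5% and 23.2% of all genes. In limma, 1 fell at an adjusted p of 0.05 (P4ha1) and 10 of the 26 were lower at 0.10, beside 0.767% of all genes. For 12 of the 26 both early treated arrays were below all 4 untreated arrays, which held for 9.99% of all genes. The mean level of the list was 7.86 and 7.95 in early treated cells and 8.38 and 8.80 in late untreated cells. Untreated cells had 8.01 and 8.12 on days 3 and 4, so most of the distance lay between early and late untreated days. Without the untreated day 6 array the median was -0.42. Late treated cells were at 8.63 and 8.92, and in the mirror comparison 10 members rose and 0 fell, with a median of 0.56.

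Slc2a1, the glucose transporter Glut1, read 10.56 and 10.46 with early vitamin C against 11.48 and 12.01, a difference of -1.24 ± 0.19 (adjusted p 0.0554 in limma). Early untreated cells had 10.84 and 10.85, between the 2 groups. Bnip3, a mitophagy receptor and HIF target whose promoter is shown above, read 6.86 and 7.32 against 8.42 and 9.01, a difference of -1.62 ± 0.27 (adjusted p 0.0624). Its early untreated values of 7.11 and 7.76 overlapped with the treated ones. Late treated cells had 9.0 and 9.46, each above the untreated array of the same day.

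Aldoc, a brain-type aldolase isozyme, differed by -1.64 (adjusted p 0.0786), Pfkl, the liver-type phosphofructokinase, by -0.90 (0.0692) and Eno2, an enolase, by -0.95 (0.0692). Aldoa, Pgk1, Tpi1 and Pdk1 differed by -0.82, -0.76, -0.60 and -0.61, all with an adjusted p between 0.05 and 0.10. The first 3 of these serve glycolysis, and Pdk1 inhibits pyruvate dehydrogenase. Tpi1 read 8.96 on both early treated days and between 9.30 and 9.64 on every untreated day, so it lay below the early as well as the late untreated cells, with the larger gap to the late ones. Ndrg1, a stress-response gene, differed by -1.30 (adjusted p 0.110), but its early untreated values of 8.56 and 9.10 were no higher than the treated 8.76 and 9.51. Hk1 and Higd1a differed by 0.01 and 0.21.

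P4ha1, the catalytic subunit of collagen prolyl 4-hydroxylase and a HIF target, belongs both to this list and to that of collagen hydroxylation. It read 7.0 and 7.25 with early vitamin C and 8.26 and 8.65 in late untreated cells, and early untreated cells had 7.91 and 8.15. Both treated values lay below all 4 untreated ones, and P4ha1 fell by 1.33 ± 0.18 on the log2 scale (2.52-fold lower, adjusted p 0.0450 in limma). In late treated cells it read 8.28 and 8.52, level with late untreated cells, and the mirror difference of 0.36 did not pass (adjusted p 0.272).

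**Figure D4:**
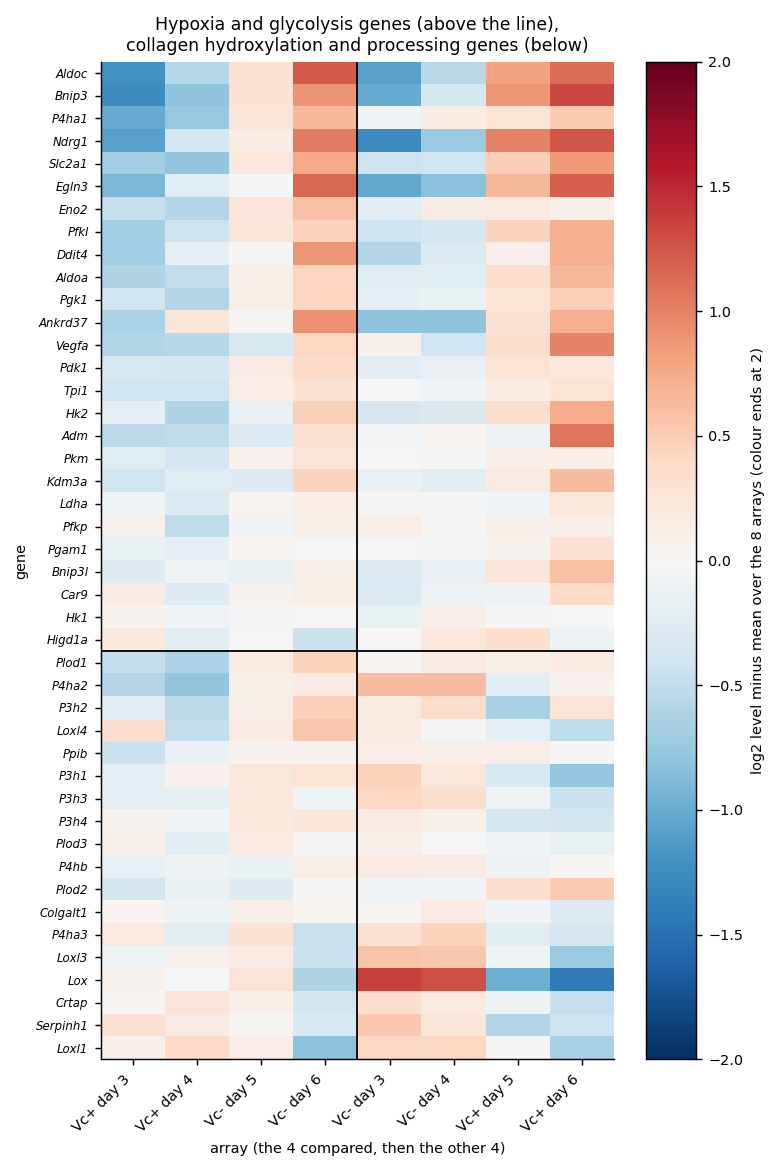
Log2 level of each gene minus its mean over the 8 arrays, with the 4 compared arrays on the left (Vc+ is vitamin C, Vc- untreated) and the other 4 on the right. Blue is below the gene's mean and red above it, with colours ending at 2. P4ha1, in both lists, is drawn once, above the line. P4ha1, Plod1 and P4ha2 are low in the 2 early vitamin C arrays and higher in all 4 untreated arrays.

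Of 19 collagen hydroxylation and processing genes, 8 were lower without overlap and 1 higher, beside 22.5% and 23.2% of all genes, and 8 lay below all 4 untreated arrays, beside 9.99%. Plod1, a lysyl hydroxylase, read 5.89 and 5.75 with early vitamin C against 6.53 and 6.82, with early untreated values of 6.40 and 6.54. The difference was -0.85 ± 0.15 (adjusted p 0.0684). P4ha2, the second catalytic subunit, read 4.85 and 4.65 against 5.55 and 5.60, with early untreated values of 6.05. Untreated cells were thus lower late than early for P4ha2, and treated cells lower still, with a difference of -0.83 ± 0.15 (adjusted p 0.0725) and a mirror fall of 0.69. Lox, Loxl1 and Serpinh1, which crosslink or chaperone collagen, differed by 0.21, 0.59 and 0.38 without passing, and Lox fell by 2.52 in the mirror comparison. The mirror comparison had 7 of the list lower past the threshold and 0 higher.

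The list of histone and DNA dioxygenases and related hydroxylases contained 30 measured genes, 14 lower without overlap and 6 higher, beside 22.5% and 23.2% of all genes. The median was -0.16 (-0.10 without the untreated day 6 array), and 0 were past an adjusted p of 0.05 in limma. Kdm7a, a JmjC demethylase, read 7.94 and 7.48 against 8.43 and 8.72, a difference of -0.87 (adjusted p 0.0799), with both treated values below all untreated ones. Tet1 read 8.52 and 8.91 against 8.25 and 8.16, a difference of 0.51 (adjusted p 0.235), and Tet2 differed by 0.03. Slc23a1, a sodium-dependent vitamin C transporter, read 3.66 and 4.87 against 3.82 and 3.84, a difference of 0.43 (adjusted p 0.583), and rose by 2.58 in the mirror comparison. The day 3 treated array was at the untreated level.

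Penk, which encodes the opioid precursor proenkephalin, was the fall of the largest size past the threshold. It read 7.51 and 7.38 with early vitamin C and 8.92 and 9.43 in late untreated cells, with 8.02 and 8.51 in early untreated cells. Untreated values were higher on each later day, and all 4 treated values, 7.09 to 7.59, lay below all 4 untreated ones. Penk fell by 1.73 ± 0.23 (3.31-fold lower, adjusted p 0.0450 in limma) and by 0.92 in the mirror comparison, the 1 gene of the 6 that fell in both.

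The other 4 falls had opposite signs in the 2 comparisons. Depp1, a gene induced by FOXO factors and fasting, read 6.89 and 6.72 with early vitamin C against 8.06 and 8.55. Late treated cells had 8.30 and 8.71, and the fall of 1.5 ± 0.20 stood beside a mirror rise of 1.57. Ccn1 (Cyr61), a secreted matricellular protein, read 9.84 and 9.86 against 10.85 and 11.23 and fell by 1.19. Nr4a1, an orphan nuclear receptor of the immediate early response, read 8.54 and 8.74 against 9.70 and 9.90 and fell by 1.16. Spock2, an extracellular matrix proteoglycan, read 4.45 and 4.42 against 5.44 and 5.60 and fell by 1.08. For these 4, early untreated values were close to the early treated ones, nearer than to any late untreated value on each day.

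Of the 16 genes in which all 4 pairs of arrays differed at least 2-fold downwards (0.0802%), most did not pass at 0.05, and the following were chosen after their values were seen. Trh, the thyrotropin-releasing hormone precursor, read 6.99 and 7.88 against 9.21 and 9.57, a difference of -1.96 ± 0.35 (adjusted p 0.0692). Igfbp2, which binds insulin-like growth factors, differed by -1.85 (0.0624), and Cyp26a1, which degrades retinoic acid, by -1.74 (0.0799). These 3 rose in the mirror comparison by 1.98, 2.26 and 1.64. Ly6d, a surface protein, read 5.25 and 5.46 against 7.13 and 7.20, a difference of -1.81 (adjusted p 0.0545), and Sox4, a transcription factor, read 5.42 and 5.32 against 6.61 and 6.46, a difference of -1.16 (0.0692). Both were below all 4 untreated arrays on days 3 and 4 of vitamin C. Late treated Sox4 read 5.92 on day 5, still below all 4 untreated arrays, and 6.59 on day 6, within their range of 6.41 to 6.67.

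Across the looser threshold, the split between genes that held and genes that turned was unequal in number. Of the 125 higher genes, 93 lay above all 4 untreated arrays, 21 also rose in the mirror comparison, 16 fell in it and 88 did not pass. Of the 153 lower genes, 107 lay below all 4 untreated arrays, 5 fell in the mirror comparison, 48 rose and 100 did not pass. The mirror counts stand beside 4.60% of all genes that rose and 3.51% that fell in the mirror comparison. Among all genes, 10.8% lay above all 4 untreated arrays and 9.99% below them. Selection for a difference from the late untreated arrays, which are part of the 4, by itself raises the counts of 93 and 107. Both comparisons use 1 estimate of spread.

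**Figure D5:**
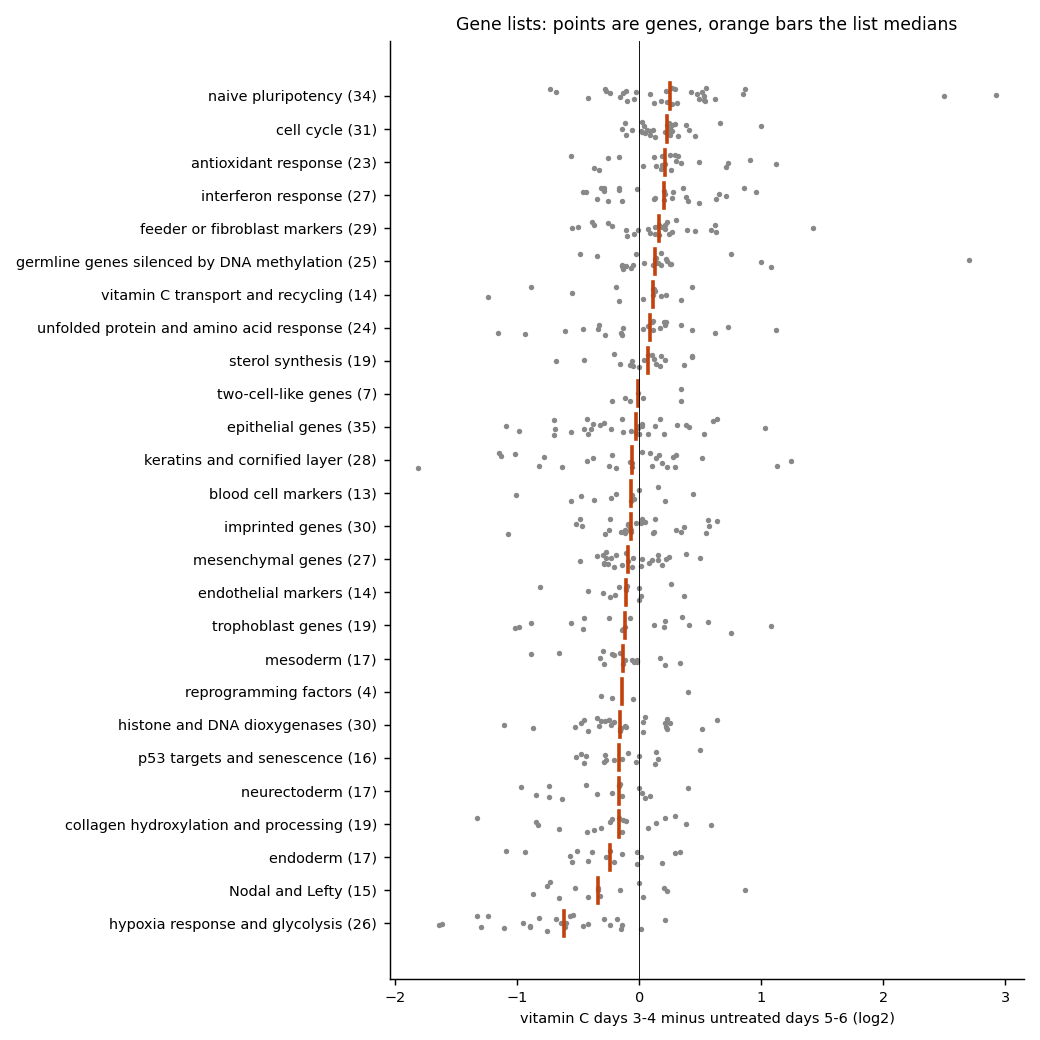
Each row is 1 of 26 gene lists, with the number measured in brackets. Points are genes, placed by early vitamin C minus late untreated in log2, with vertical scatter only to separate them, and orange bars are list medians. The hypoxia and glycolysis list has the lowest median, -0.62, and the naive pluripotency list the highest, 0.25, with Dppa2 and Dppa5a far to the right.

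Of the other lists, antioxidant response genes had 13 of 23 higher without overlap, 2 lower and a median of 0.21 (0.13 without the vitamin C day 4 array), where 23.2% of all genes were higher and 22.5% lower. Nqo1, a quinone reductase, read 5.65 and 5.71 against 4.98 and 4.56, a difference of 0.91 (adjusted p 0.0786). Its early untreated values were 5.55 and 5.27, so the distance was mostly one between early and late untreated cells. Slc7a11, the cystine transporter, differed by 1.12 (adjusted p 0.0931) and fell by 1.15 in the mirror comparison. Cell cycle genes had 10 of 31 higher without overlap and 0 lower, with a median of 0.23 that was 0.03 without the untreated day 6 array and 0.12 without the vitamin C day 3 array. The mean level of the cell cycle list was 8.17 and 8.14 in early treated cells and 8.09 and 7.82 in late untreated cells. Early untreated cells had 8.17 and 8.16, level with the early treated ones. Ccne1 (cyclin E1), at 8.63 and 8.92 against 8.02 and 7.53, differed by 1.0 (adjusted p 0.0799). Its early untreated values were 8.54 and 8.32, so most of the distance lay between early and late untreated cells. Interferon response genes had 13 of 27 higher and 7 lower, with a median of 0.20 (0.10 without the vitamin C day 3 array). Their mean level was 4.76 and 4.68 in early treated cells and 4.56 and 4.57 in late untreated cells. Early untreated cells had 5.13 and 4.87, above the early treated ones. Only 1 of the 27 lay above all 4 untreated arrays, beside 10.8% of all genes. Endoderm, mesoderm and neurectoderm genes had medians of -0.24, -0.13 and -0.17, which ran from -0.32 to -0.10, -0.19 to -0.09 and -0.35 to -0.11 over the settings. Of the 17 genes in each, 0 passed at 0.05 in limma. Without overlap, 9, 8 and 9 were lower and 2, 2 and 1 higher, beside 22.5% and 23.2% of all genes. Blood and endothelial markers, checked as other cell types, had mean levels of at most 4.52 on every array and medians of -0.07 and -0.11. Of 13 blood markers, 6 were lower without overlap and 1 higher, and Cd68, a macrophage lysosomal protein, read 5.95 and 5.72 against 6.35 and 7.36. Its difference of -1.01 did not pass (adjusted p 0.205), and it rose by 1.74 in the mirror comparison. The part of such cells in the other values was not tested.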

How the data were processed

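The authors' deposited values are RMA expression values made in Partek, per the submitters' processing notes. Probe set definitions, versions and genome build were not stated there. The deposited RMA values of the authors were read as log2, since the highest, 13.8, lies above the natural log of a full 16-bit reading (11.1) and under its log2 (16.0). Per the labels' protocols, 100 ng of total RNA were labelled per array. Of 28853 probe sets, 21789 had 1 gene symbol in the platform annotation, 1621 had several and 5443 were unnamed here. Each gene was represented by its brightest probe set (mean of the 8 arrays), which left 19938 genes. No detection calls were used, and precision is limited by the number of arrays.

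Group means (treatment by days 3 and 4 or 5 and 6) were fitted to all 8 arrays with limma 3.58.1 in R 4.3.3, two-sided, with 4 residual and 6.27 prior degrees of freedom. P-values were adjusted by Benjamini-Hochberg over all genes with a threshold of 0.05, and 0.10 as an alternative. "Without overlap" means that both arrays of one group lay beyond both of the other. In arrays simulated with independent noise for 19938 genes, a log2 change of 0.5 was found in 1.49% of cases in the first comparison. A change of 1 was found in 50.7% and one of 2 in 93.9%. The simulation made 101 calls where the data gave 10, so its threshold was easier to pass. These shares are therefore not detection rates for the data.

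The 26 gene lists had 618 entries, of which 560 were measured. The members, the lists and the rule for named genes were chosen with earlier results of these data known. The rule named the largest rises and falls past the threshold without overlap, the genes highest above all 4 untreated arrays, up to 4 list members with the smallest p, genes past the threshold with opposite signs in the mirror comparison, and a set of pluripotency, epithelial and fibroblast genes. Other list members are named to describe a list. Predicted genes and olfactory receptors entered the counts but are unnamed, with 1 stated exception. Symbols were checked against RefSeq genes of GRCm38.p6. Alternatives covered normalization, filters, probe sets, the variance model, the use of day, the arrays in the fit, a marker covariate and leaving out each array.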

Additional observations from a re-analysis of the deposited data

How the results depend on the processing

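The main count of 10 genes depended on the setting. It was 223 with a line on day for each treatment, 237 with trend and robust options, 35 without the dimmest 25% of genes, 278 at an adjusted p of 0.10, 5 with only the 4 arrays compared, 3 over every probe set, 2 after quantile normalization again and 0 with the marker covariate (2527 genes at an unadjusted p under 0.05). It stayed near 10 after centring on array medians (12) and with the mean of a gene's probe sets (9). Leaving out 1 array gave 0 to 23 genes. It was 0 without untreated day 6 (1534 at an unadjusted p under 0.05), 23 without untreated day 5, 19 without vitamin C day 3 and 6 without vitamin C day 4. Without untreated day 6 the 10 genes kept 83.7% to 102.1% of their differences. Where an array was left out, the lone array of its group was assumed to vary like the other groups. The cause of these shifts was not tested. The mirror count of 1617 stayed between 1538 and 2189 under the other settings and fell to between 342 and 1293 when 1 array was left out.

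For 27 named genes under 12 settings each, 244 values kept direction and call, 56 lost the call, 10 gained it and 14 changed sign. The sign changed only in genes that did not pass. Cdh1, with a range of -0.19 to 0.18 when 1 array was left out, became 0.04 with the line on day, 0.02 after quantile normalization, 0.03 after centring, 0.06 with the covariate, 0.18 without vitamin C day 3 and 0.14 without untreated day 6. Without vitamin C day 4, Sox2 was -0.29, Slc23a1 -0.18 and Dppa3 -0.08. Without untreated day 5, Dppa3 was -0.12, Vim 0.04 and Zfp42 0.11. Zfp42 was 0.17 without vitamin C day 3, and Col1a1 -0.01 without untreated day 6. The opposite ends of their ranges over the left-out arrays were 1.10 for Sox2, 1.04 for Slc23a1, 0.65 for Dppa3, -0.45 for Vim, -0.49 for Zfp42 and 0.60 for Col1a1. The hypoxia and glycolysis median ran from -0.90 to -0.42, lowest in size without untreated day 6. The naive pluripotency median ran from 0.13 to 0.35. No paired analysis was possible because the compared groups share no day. No log transformation was needed.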

Other observations

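Immediate early genes, the transcription factors and signalling regulators induced within minutes of a stimulus, formed a group that was described only after Nr4a1 and Ccn1 were seen. Of 22 measured, 15 were lower without overlap in early vitamin C cells than in late untreated cells and 0 higher, beside 22.5% and 23.2% of all genes. Their median was -0.51, and it was -0.32 without the untreated day 6 array and -0.79 without the untreated day 5 array. At an adjusted p under 0.10 in limma 7 of them were lower, among which Ccn1 and Nr4a1 were under 0.05. Of all genes, 0.767% were lower at 0.10. Atf3, a stress-induced transcription factor, read 7.46 and 7.54 with early vitamin C against 8.46 and 8.87, and 7.53 and 7.29 in early untreated cells. Dusp1, a MAP kinase phosphatase, read 10.27 and 10.39 against 10.95 and 11.51, and late treated cells had 11.68 and 11.78. In the mirror comparison 10 of the 22 rose and 0 fell, with a median of 0.69. Egr2 was high on a single array, at 7.34 in untreated cells on day 6 and at 6.39 or less on the others.

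Small nucleolar RNA genes, which guide the modification of ribosomal RNA and are mostly cut from introns of host genes, were also grouped after their values were seen. Of 51 measured, 35 were higher without overlap with early vitamin C and 1 lower, beside 23.2% and 22.5% of all genes. At an adjusted p under 0.10, 12 were higher, beside 0.627% of all genes, and the median was 0.51. Snord87 read 5.42 and 5.05 against 4.12 and 3.61, and Snord52 read 6.54 and 6.09 against 5.32 and 5.02. Early untreated cells had 5.19 and 5.57 for Snord87 and 6.39 and 6.46 for Snord52, so both treatments were higher early than late. In the mirror comparison 4 fell and 1 rose, with a median of -0.26. No RNA quality measure was used here, and the host genes were not compared.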
